A study of Homo sapiens with 21 samples.

Results

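The nuclear genes of oxidative phosphorylation were followed in C3A cells, a human hepatoma line derived as a clone from HepG2. The members were the protein-coding genes whose symbol starts with NDUF, UQCR, COX4 to COX8, SDHA to SDHD or ATP5, 100 of the 28808 genes in the files. They comprised 39 complex I subunits and 8 complex I assembly factors, 4 complex II subunits and 4 complex II assembly factors, 9 complex III genes, 15 complex IV genes and 21 complex V genes. This grouping follows the symbols, so NDUFA4, now known as a complex IV subunit, was counted with complex I, and the prefixes leave out CYC1 and cytochrome c. Bulk RNA was sequenced from 5 exposures with 3 libraries each and from 6 unexposed libraries. Exposed cells received glyphosate at 5.6 µM (0.95 µg/mL), its breakdown product aminomethylphosphonic acid (AMPA) at 34 µM (3.7 µg/mL), the auxin herbicide 2,4-D at 2.5 µM (0.56 µg/mL), glyphosate plus 2,4-D, or AMPA plus 2,4-D, each for 48 h. All libraries came from the one line, labelled wild type, and the labels name neither a vehicle, a batch nor separate cultures, so p-values measure the spread between these libraries, which may be technical. The single agents were given at different molar doses.

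Oxidative phosphorylation passes electrons from NADH at complex I and from succinate at complex II to coenzyme Q, through complex III to cytochrome c, and on to oxygen at complex IV. Protons pumped on the way drive ATP synthase, complex V. Most subunits are encoded in the nucleus and made in the cytosol, the rest are encoded in mitochondrial DNA, and assembly factors help to build the complexes without staying in them. The liver is rich in mitochondria, whereas hepatoma lines rely more on glycolysis.

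Levels are given in FPKM, fragments scaled to gene length and to the size of the library, as the authors deposited them. Recovered reads per library ran from 15202557 to 24352443. The unexposed libraries are described as replicates 1 to 3 and replicates 4 to 6, because both sets differed in many genes. The 2,4-D library of replicate 2 stood apart among the exposed ones, with a summed member level of 2506 FPKM against at least 2646 FPKM in the other exposed libraries. All 12 hepatocyte markers reached 1 FPKM in every library, and their summed level was 12668 to 14536 FPKM in exposed and 7708 to 12992 FPKM in unexposed libraries. The members of that list did not all go one way. HNF4A stood at 23.9 to 28.4 FPKM in exposed and 43.1 to 45.6 FPKM in unexposed libraries, and APOB at 333 to 436 FPKM in exposed and 443 to 571 FPKM in unexposed libraries, both without overlap. Of 3 fibroblast markers in the files only PDGFRB reached 1 FPKM, and all 5 endothelial and all 3 leukocyte markers in the files stayed under it. Ribosomal protein genes, another set of short and abundant transcripts, took 9.14 to 10.2% of all FPKM in exposed and 7.16 to 8.37% in unexposed libraries, so they moved in the same direction as the members. Their part in the results, and that of the hepatocyte markers, was not tested.

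Summed over all members, the level was 2506 to 2963 FPKM in the 15 exposed libraries, 2275 to 2378 FPKM in unexposed replicates 4 to 6, with 2077 to 2109 FPKM in unexposed replicates 1 to 3. The 3 sets of libraries did not overlap, and replicates 4 to 6 lay between the other 2. Members took 0.849 to 0.937% of all FPKM in exposed libraries, 0.792 to 0.831% in unexposed replicates 4 to 6 and 0.742 to 0.750% in unexposed replicates 1 to 3. In bulk RNA a change in the number of cells of a type and a change in RNA per cell cannot be told apart. Exposure likewise cannot be told apart from a batch that the exposed libraries might share.

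**Figure D1:**
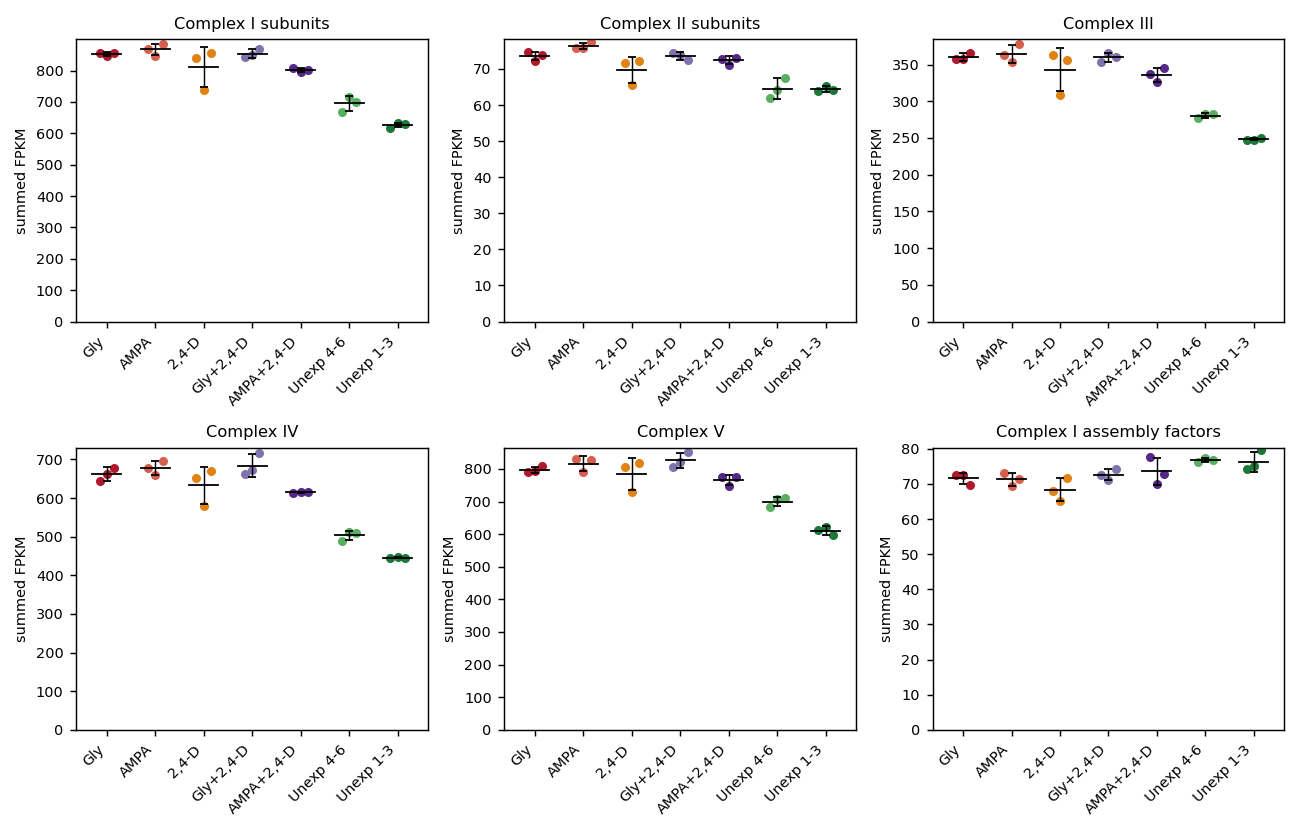
Summed FPKM of each complex in every library (points), with the group mean and SD (bars, n = 3), exposures on the left and unexposed replicates 4 to 6 and 1 to 3 on the right. Complexes I, III, IV and V lie highest in exposed libraries and lowest in unexposed replicates 1 to 3, whereas the assembly factors of complex I lie at 65.2 to 77.7 FPKM in exposed libraries and 74.3 to 79.6 FPKM in unexposed ones.

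Of the 100 members, 93 had at least 1 FPKM in 3 or more libraries and were tested, among 13405 genes, by limma on log2(FPKM + 1) with Benjamini-Hochberg adjustment. All values called log2 differences below are on that scale, exposed minus unexposed unless another pair is named. A member near 1 FPKM could pass through the group where it was higher. The exposures share the 6 unexposed libraries, so their counts are not independent of each other. Against these 6 libraries, 59 members were higher and 6 lower with glyphosate, where 27.7% of all genes tested were called higher and 25.1% lower. With AMPA 61 were higher and 5 lower, against 28% and 24.8% of all genes. With 2,4-D 48 were higher and 7 lower, against 25% and 22.6% of all genes. Glyphosate plus 2,4-D gave 62 higher and 4 lower, against 25.4% and 22.7% of all genes, and AMPA plus 2,4-D gave 56 higher and 5 lower, against 26% and 24.4% of all genes. The members' median log2 difference was 0.19 to 0.28 over the 5 exposures, while that of all genes tested was 0.0005 to 0.014. On TPM, where the median of all genes tested shifted to -0.14 to -0.08, the split was 39 to 44 members higher and 8 to 13 lower, with a member median of 0.12 to 0.16. Leaving out single libraries gave 41 to 65 members higher and 3 to 7 lower. The shares of all genes called on TPM and in fits that leave out libraries are not given here. Those counts are therefore not read as particular to the members. Without AMPA plus 2,4-D replicates 1 and 3 together, 27 members were higher and 3 lower in that exposure.

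Across exposures, 43 of 93 members were higher in all 5, against 18.2% of all genes tested, and NDUFAF3 alone was lower in all 5, against 15.4%. For 28 members every exposed library lay above every unexposed one, against 13.8% of all genes tested, and for NDUFAF3 every exposed library lay below, against 11.6%. Another 13 of 93 members were called in none of the exposures, against 4084 of the 13405 genes tested.

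**Figure D2:**
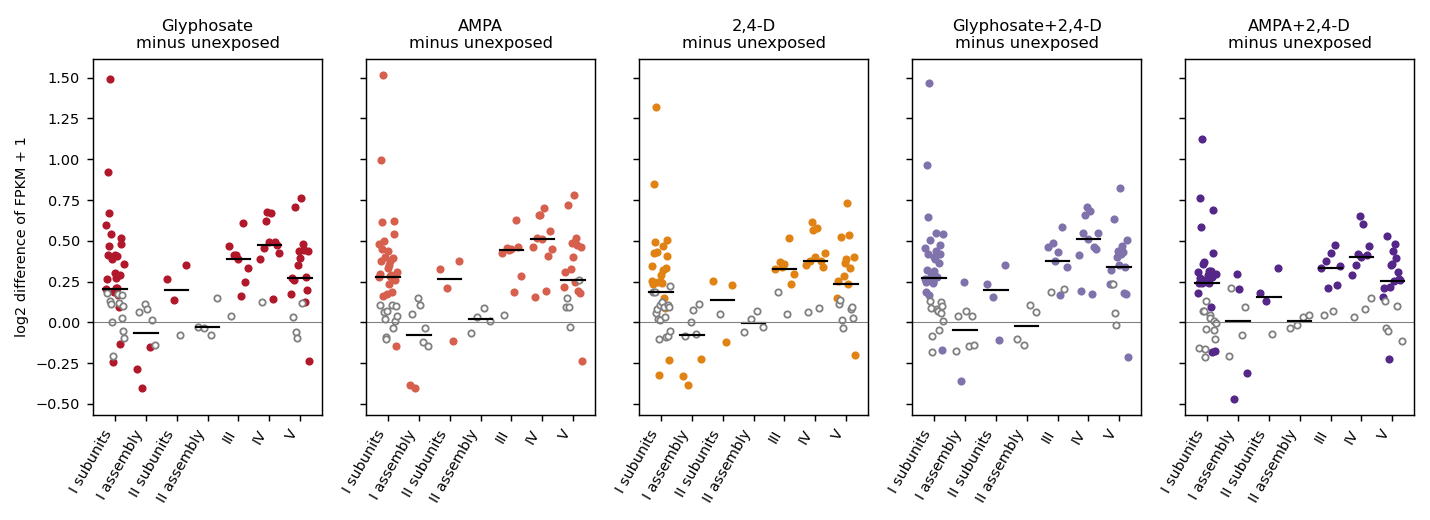
Log2 differences of the 93 tested members (points) in each exposure minus the 6 unexposed libraries, by complex, with filled points for members past an adjusted p of 0.05, open points for the others and a line at the class median. The medians of complexes III and IV lie between 0.33 and 0.51 and those of the assembly factors between -0.08 and 0.02.

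Complex I takes electrons from NADH through a core that is conserved from bacteria and is surrounded by accessory subunits. Of 38 tested subunits 19 to 26 were higher per exposure and 1 or 2 lower, with class medians of 0.19 to 0.28. The 7 nuclear core subunits gave 2 or 3 higher and 1 or 2 lower per exposure. These 7 include NDUFV2, at 0.399 to 0.770 FPKM in unexposed and 0.679 to 1.67 FPKM in exposed libraries. NDUFV2 reached 1 FPKM in exposed libraries only and passed the filter through them, so a higher call for it is no support. The 31 other subunits gave 17 to 23 higher and at most 1 lower. The difference between core and other subunits was not tested. Higher in all 5 exposures were NDUFA1, NDUFA2, NDUFA4, NDUFA4L2, NDUFA6, NDUFA10, NDUFA12, NDUFA13, NDUFAB1, NDUFB3, NDUFB4, NDUFB6, NDUFB7, NDUFB8, NDUFS3, NDUFS4 and NDUFS5. Among those higher in none were NDUFA8, NDUFA9, NDUFB1, NDUFB10, NDUFS7, NDUFS8, NDUFV1 and NDUFV3, and 12 tested subunits were higher in 1 to 4. NDUFA7, at 2 to 20 reads, was not tested. NDUFS3, a core subunit, was higher in all 5 exposures, with log2 differences averaging 0.33.

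NDUFA4L2, a hypoxia-inducible paralogue of NDUFA4 known to lower complex I activity, had the largest increase of all members. The gene lies at chr12:57234903-57240715 of GRCh38 on the minus strand. It stood at 25.2, 27.4 and 24.5 FPKM with glyphosate, 26.1, 25.8 and 26.6 FPKM with AMPA, and 22.2, 22.6 and 23.5 FPKM with 2,4-D. The mixtures gave 24.6, 25.5 and 25.6 FPKM for glyphosate plus 2,4-D and 19.6, 19.5 and 19.9 FPKM for AMPA plus 2,4-D. Unexposed replicates 4 to 6 had 11.8, 12.6 and 12.6 FPKM, and unexposed replicates 1 to 3 had 6.17, 5.99 and 5.15 FPKM. No exposed library overlapped an unexposed one, the AMPA plus 2,4-D libraries were the lowest exposed ones, and both unexposed sets were apart from each other. Its log2 differences ran from 1.12 with AMPA plus 2,4-D to 1.52 with AMPA (SE 0.21 each, limma adjusted p at most 2.3e-04).

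NDUFA2 (chr5:140638740-140647785, minus strand), an accessory subunit of the NADH-binding arm, averaged 35.7 ± 0.37 FPKM with glyphosate, 37.7 ± 1.08 with AMPA, 34.2 ± 5.51 with 2,4-D, 36.8 ± 0.53 with glyphosate plus 2,4-D and 31.9 ± 1.35 with AMPA plus 2,4-D (SD, n = 3 each). Unexposed replicates 4 to 6 averaged 21.5 ± 0.43 FPKM and unexposed replicates 1 to 3 averaged 15.8 ± 0.62 FPKM (SD, n = 3 each). Its log2 differences were 0.76 to 0.99 in the 5 exposures (SE 0.11), and the lowest exposed library, 2,4-D replicate 2 at 28.1 FPKM, still lay above the highest unexposed one at 22.0 FPKM. NDUFS5, an accessory subunit and the most abundant member of complex I, stood at 87.7 to 122 FPKM in exposed libraries, 79.3 to 82.4 FPKM in unexposed replicates 4 to 6, with 66.6 to 70.8 FPKM in unexposed replicates 1 to 3. Its log2 differences were 0.42 to 0.54. NDUFB1, an accessory subunit, was lower in 1 exposure only, 2,4-D, with 3.04 to 3.41 FPKM against 3.38 to 4.95 FPKM in unexposed cells and a log2 difference of -0.32 (SE 0.12). The limma adjusted p was 0.038, the ranges overlap, and the call was lost without any 1 of the 3 2,4-D libraries or without unexposed replicate 1, 4, 5 or 6. NDUFS8, another core subunit, was lower in 4 of 5 exposures, with log2 differences of -0.23 to -0.06. NDUFS8 stood at 7.15 to 9.32 FPKM in exposed and 8.62 to 10.2 FPKM in unexposed libraries, so the ranges overlap. It is named here after its values were seen, since few members fell.

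**Figure D3:**
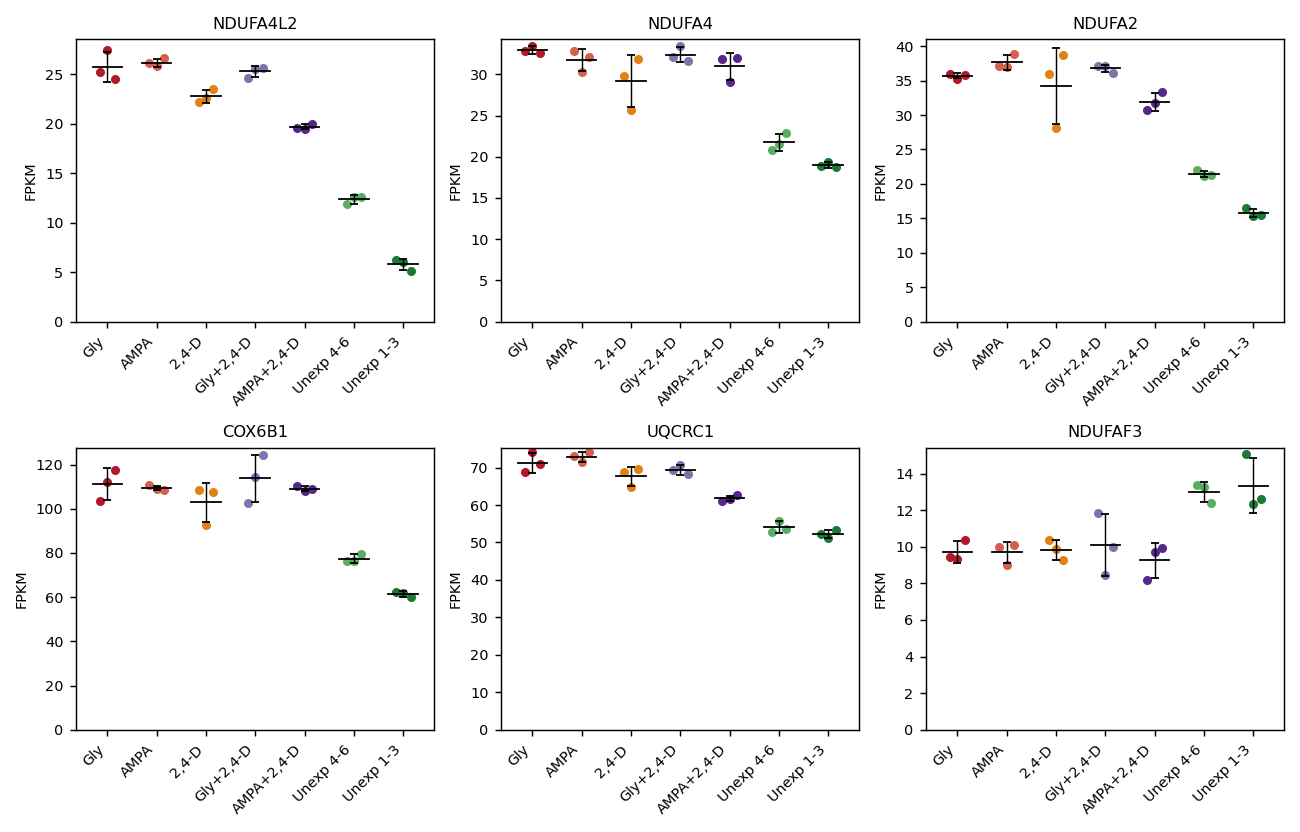
FPKM of 6 members in every library (points) with the group mean and SD (bars, n = 3), exposures on the left and unexposed replicates 4 to 6 and 1 to 3 on the right. NDUFA4L2, NDUFA4, NDUFA2, COX6B1 and UQCRC1 lie higher in every exposed library than in every unexposed one, and NDUFAF3 lies lower.

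Assembly factors were followed apart from the subunits. Of 12 tested factors of complexes I and II, 0 to 2 were higher and 1 to 3 lower per exposure, where 25 to 28% of all genes tested were higher and 22.6 to 25.1% lower. NDUFAF3 (chr3:49020459-49023495, plus strand), which works with NDUFAF4 in building the part of complex I next to the coenzyme Q site, was the only member lower in all 5 exposures. It stood at 9.43, 9.35 and 10.4 FPKM with glyphosate, 9.96, 9.02 and 10.1 FPKM with AMPA and 10.4, 9.88 and 9.26 FPKM with 2,4-D. Glyphosate plus 2,4-D gave 11.9, 8.46 and 9.98 FPKM and AMPA plus 2,4-D gave 8.16, 9.69 and 9.91 FPKM. Unexposed replicates 4 to 6 had 13.4, 13.2 and 12.4 FPKM and unexposed replicates 1 to 3 had 15.1, 12.3 and 12.6 FPKM. Every exposed library was thus below every unexposed one, and the log2 differences were -0.47 to -0.36 (SE 0.08, limma adjusted p at most 0.0015). Its exons overlap those of DALRD3 on the opposite strand over 21.7% of their bases, and the counting strand is not given in the sources used here. NDUFAF4, its partner, was higher in 2 exposures with log2 differences of 0.0003 to 0.30 over the 5, and those calls were lost without replicate 1 of AMPA plus 2,4-D or replicate 1 or 2 of glyphosate plus 2,4-D. On TPM both NDUFAF4 calls were lost, with values of -0.09 to 0.22 over the exposures. NDUFAF1 was lower in 3 exposures (-0.38 to -0.18), NDUFAF8 in 2 (-0.31 to -0.14) and NDUFAF6 in 1 (-0.15 to -0.07), and NDUFAF5 was higher in 1 (0.07 to 0.20). These 4 were named after their values were seen. NDUFAF2, the most abundant of the factors at 18.6 to 29.3 FPKM in exposed and 19.2 to 25.0 FPKM in unexposed libraries, was called in none. The 4 assembly factors of complex II were called by limma in no exposure, none had an unadjusted p under 0.05, and voom on recovered reads also called 0. Those counts are against all 6 unexposed libraries. Against unexposed replicates 1 to 3, SDHAF2 was lower with glyphosate plus 2,4-D (-0.30, SE 0.10, limma adjusted p = 0.018), and voom called it too. SDHAF1, which aids iron-sulfur insertion into SDHB, had log2 differences of -0.10 to -0.03.

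Complex II, succinate dehydrogenase, also serves the tricarboxylic acid cycle and is made wholly from nuclear genes, so its 4 subunits were all measured. SDHA, the flavoprotein, was higher in all 5 exposures, at 13.5 to 17.2 FPKM in exposed, 13.7 to 14.3 FPKM in unexposed replicates 4 to 6, with 11.5 to 12.4 FPKM in unexposed replicates 1 to 3 (log2 differences 0.18 to 0.33). In AMPA plus 2,4-D the call for SDHA was lost on leaving out replicate 1 or replicate 3 of that exposure. SDHA also lost 2 of its 5 calls on TPM, 1 with the compared groups alone and 1 after removal of a length trend. How reads divide between SDHA and its pseudogenes SDHAP1 and SDHAP3, given below, was not tested. SDHB, the iron-sulfur subunit, was higher in 4 exposures, at 31.2 to 39.7 FPKM in exposed and 29.4 to 34.3 FPKM in unexposed libraries (0.05 to 0.21). On TPM these 4 calls for SDHB were lost, at log2 differences of 0.02 to 0.05, and the uncalled 2,4-D value was -0.05. Single SDHB calls were lost without any 1 of the AMPA plus 2,4-D replicates, glyphosate replicate 1, glyphosate plus 2,4-D replicate 1, or unexposed replicate 4 or 5. SDHD (chr11:112086773-112120013, plus strand), a membrane anchor, was higher in all 5, at 12.9 to 16.4 FPKM in exposed and 10.9 to 12.3 FPKM in unexposed libraries, with no overlap (0.23 to 0.37, SE 0.05). SDHC, the other anchor, went the other way, at 6.37 to 7.34 FPKM in exposed and 7.02 to 7.80 FPKM in unexposed libraries, and was lower in 3 exposures (-0.12 to -0.07, SE 0.04). Those calls for SDHC were lost without replicate 1 or 2 of 2,4-D, replicate 1 or 3 of AMPA, or any 1 replicate of glyphosate plus 2,4-D. All 3 were also lost with the compared groups alone, whereas on TPM SDHC was lower in all 5 exposures (-0.28 to -0.18).

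Complex III passes electrons from coenzyme Q to cytochrome c. Of its 9 genes 7 or 8 were higher per exposure and none lower, with medians of 0.33 to 0.45. Its summed level was 309 to 378 FPKM in exposed libraries, 277 to 283 FPKM in unexposed replicates 4 to 6, with 247 to 250 FPKM in unexposed replicates 1 to 3. UQCRH (chr1:46303631-46316776, plus strand), the hinge protein near cytochrome c1, was both the most abundant and the one with the largest increase. It averaged 116 ± 0.96 FPKM with glyphosate, 117 ± 4.60 with AMPA, 109 ± 11.6 with 2,4-D, 114 ± 2.37 with glyphosate plus 2,4-D and 105 ± 1.84 with AMPA plus 2,4-D (SD, n = 3 each). Unexposed replicates 4 to 6 averaged 82.6 ± 1.36 FPKM and unexposed replicates 1 to 3 averaged 69.3 ± 0.97 FPKM (SD, n = 3 each). The log2 differences of UQCRH were 0.47 to 0.63, and no exposed library overlapped an unexposed one. UQCRHL, a near-identical copy of UQCRH at 1.43 to 2.38 FPKM in exposed and 1.13 to 1.53 FPKM in unexposed libraries, is uncertain, because reads of both genes are hard to separate. UQCR10, UQCRB, UQCRC1, UQCRC2, UQCRH and UQCRQ were higher in all 5 exposures, the iron-sulfur protein gene UQCRFS1 in 3, and UQCR11, a small subunit, in none.

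Complex IV, cytochrome c oxidase, had the highest class medians, 0.38 to 0.51, with 8 to 11 of 11 tested genes higher and none lower. Its summed level was 579 to 717 FPKM in exposed libraries, 489 to 511 FPKM in unexposed replicates 4 to 6, with 445 to 447 FPKM in unexposed replicates 1 to 3. COX4I1, COX5B, COX6A1, COX6B1, COX6C, COX7A2, COX7B and COX7C were higher in all 5 exposures, COX8A in 4, COX7A2L in 3 and COX5A in 2. COX6B1 (chr19:35648223-35658861, plus strand), which helps to join the monomers of the enzyme dimer, was the most abundant and rose most. It stood at 103, 112 and 118 FPKM with glyphosate, 111, 109 and 109 FPKM with AMPA and 109, 92.6 and 108 FPKM with 2,4-D. Glyphosate plus 2,4-D gave 103, 114 and 124 FPKM and AMPA plus 2,4-D gave 110, 108 and 109 FPKM. Unexposed replicates 4 to 6 had 76.4, 76.4 and 79.7 FPKM and unexposed replicates 1 to 3 had 62.3, 62.1 and 59.98 FPKM. All 15 exposed libraries were above all unexposed ones, and the log2 differences were 0.57 to 0.71 (SE 0.09, limma adjusted p at most 4.2e-05).

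Tissue and hypoxia isoforms were read beside this. COX4I1, the common form of subunit 4, was higher in all 5 exposures, at 58.8 to 69.8 FPKM in exposed and 48.3 to 52.0 FPKM in unexposed libraries (0.29 to 0.46). COX4I2, its lung and hypoxia form, had 0 reads in every unexposed library and at most 7 in an exposed one, too few to test. COX6B2, the testis form, had 5 to 23 reads, COX7A1, the muscle form, 0 to 4 reads, and COX8C 0 to 2 reads. A gene absent from the deposited values of a group was set to 0. COX8C was present in 1 of 6 groups, and COX4I2 and COX7A1 in 5 each. COX6A2 and COX7B2 were not analysed here. COX7A2L, which helps to join complexes III and IV into supercomplexes, was higher in 3 exposures (0.08 to 0.19). On TPM all 3 calls for COX7A2L were lost, and its values were -0.03 to 0.05. NDUFA4 was higher in all 5, at 25.7 to 33.5 FPKM in exposed, 20.9 to 22.9 FPKM in unexposed replicates 4 to 6, with 18.8 to 19.4 FPKM in unexposed replicates 1 to 3 (0.49 to 0.67, SE 0.06). The ratio of NDUFA4L2 to NDUFA4 in FPKM was 0.614 to 0.878 in exposed libraries, 0.550 to 0.586 in unexposed replicates 4 to 6 and 0.274 to 0.328 in unexposed replicates 1 to 3. NDUFA4L2 therefore differed by more than NDUFA4 did, and the widest gap in the ratio lay between both unexposed sets.

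Complex V makes ATP in its catalytic head as protons turn a ring of c subunits. Of 19 tested genes 11 to 15 were higher and 1 lower per exposure, with medians of 0.24 to 0.34. ATP5F1B, the catalytic beta subunit and the most abundant member of all, stood at 279 to 317 FPKM in exposed libraries, 255 to 266 FPKM in unexposed replicates 4 to 6, with 229.8 to 241.3 FPKM in unexposed replicates 1 to 3. Its log2 differences were 0.21 to 0.32 (SE 0.04), and no exposed library overlapped an unexposed one. Higher in all 5 exposures were ATP5F1A, ATP5F1B, ATP5F1E, ATP5MC2, ATP5MC3, ATP5MD, ATP5ME, ATP5MG, ATP5MPL and ATP5PO. ATP5MF and ATP5PF were higher in 4 exposures, ATP5PB and ATP5PD in 3, ATP5F1C and ATP5F1D in 1, and ATP5MC1, ATP5S and the inhibitor ATP5IF1 in none. The 1 call for ATP5F1D was lost on TPM, without a filter and with the compared groups alone. It was also lost without any 1 of glyphosate replicates 1 to 3 or unexposed replicates 1 to 3, and in other leave-one-out fits. ATP5F1D gained 3 calls with the replicate block and 1 each without unexposed replicate 5 or 6. ATP5MGL and the readthrough gene ATP5MF-PTCD1, at no more than 18 reads, were not tested. ATP5ME (chr4:672436-674338, minus strand), subunit e of the membrane part, had the largest difference, 0.44 to 0.82 (SE 0.18, limma adjusted p at most 0.049). It stood at 39.4 to 41.5 FPKM with glyphosate, 38.2 to 43.6 with AMPA, 28.3 to 47.4 with 2,4-D, 35.0 to 52.5 with glyphosate plus 2,4-D and 28.1 to 35.3 with AMPA plus 2,4-D. Unexposed replicates 4 to 6 had 26.5 to 30.4 FPKM and unexposed replicates 1 to 3 had 18.8 to 19.3 FPKM, so exposed and unexposed libraries overlapped. The exons of ATP5ME overlap MYL5 on the opposite strand over 61.6% of their bases. The call with AMPA plus 2,4-D was lost in several leave-one-out fits, given with the other settings. ATP5S, the coupling factor B gene, was lower in 4 exposures, at 1.38 to 1.77 FPKM in exposed and 1.75 to 2.17 FPKM in unexposed libraries (-0.24 to -0.11).

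The c subunit has 3 nuclear genes whose mature proteins are the same. ATP5MC2 was higher in all 5 exposures, at 38.1 to 47.5 FPKM in exposed, 37.6 to 39.8 FPKM in unexposed replicates 4 to 6, with 28.97 to 31.35 FPKM in unexposed replicates 1 to 3 (0.22 to 0.40). Its call with 2,4-D was lost without replicate 3 of that exposure, and with AMPA plus 2,4-D without its replicate 2 or 3 or unexposed replicate 1, 2 or 3. ATP5MC2 lost 3 of the 5 calls on TPM, where its values were 0.11 to 0.28, and 2 with the compared groups alone. ATP5MC3 was higher in all 5 with no overlap, at 26.4 to 31.2 FPKM in exposed and 19.2 to 23.8 FPKM in unexposed libraries (0.35 to 0.48). ATP5MC1 was lower in 1 exposure, AMPA plus 2,4-D, and stood at 15.6 to 22.0 FPKM in exposed and 19.5 to 21.8 FPKM in unexposed libraries (-0.22 to -0.02). That call for ATP5MC1 was lost without AMPA plus 2,4-D replicate 1. As a share of the FPKM of the 3 genes, ATP5MC1 held 19.4 to 23.2% in exposed libraries, 24.4 to 25.3% in unexposed replicates 4 to 6 and 29.1 to 30.3% in unexposed replicates 1 to 3, with no overlap between the sets.

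**Figure D4:**
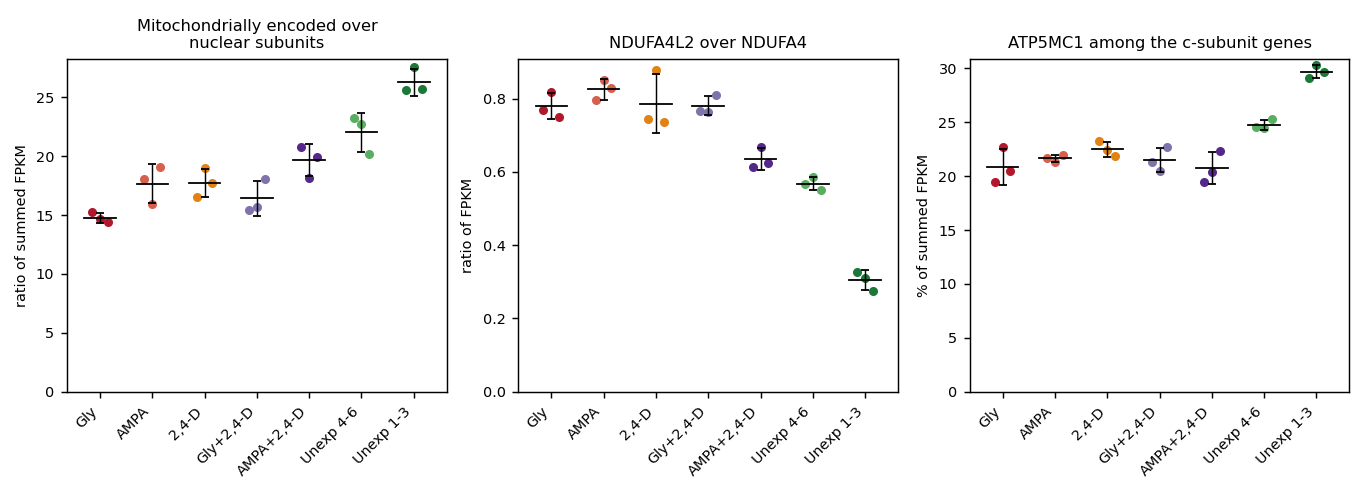
Ratios within each library (points) with the group mean and SD (bars, n = 3), exposures on the left and unexposed replicates 4 to 6 and 1 to 3 on the right. The ratio of mitochondrially encoded to nuclear subunits and the ATP5MC1 share are highest in unexposed replicates 1 to 3, and the ratio of NDUFA4L2 to NDUFA4 is lowest there.

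The promoters of members that led their complex are shown because the factors NRF1 and GABPA, an ETS protein, are known to act on many respiratory genes. Of 100 members 79 matched a RefSeq entry by symbol, among them 97 start sites. The sequences are the 250 bases before the RefSeq start on GRCh38.p14, 5′ to 3′, in lower case, with matches to the NRF1 letters, GCGCA and GCGC with any 1 base between them, or the ETS letters CCGGAAG in capitals, on either strand. COX6B1, UQCRH, SDHD and ATP5ME had the largest increase in their complex, and NDUFAF3 was lower in all 5 exposures. NDUFA4L2, which had the largest increase in complex I, matched no entry by symbol. It is therefore missing from every window count below, that of the hypoxia letters included. NDUFAF3 has 4 start sites in RefSeq, and the one listed first is printed.
COX6B1 (chr19:35648073-35648322, plus strand): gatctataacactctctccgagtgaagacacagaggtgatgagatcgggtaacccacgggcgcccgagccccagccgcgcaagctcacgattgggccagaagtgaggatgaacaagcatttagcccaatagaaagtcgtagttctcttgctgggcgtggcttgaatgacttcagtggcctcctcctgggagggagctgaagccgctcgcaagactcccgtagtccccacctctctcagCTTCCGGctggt
UQCRH (chr1:46303448-46303697, plus strand): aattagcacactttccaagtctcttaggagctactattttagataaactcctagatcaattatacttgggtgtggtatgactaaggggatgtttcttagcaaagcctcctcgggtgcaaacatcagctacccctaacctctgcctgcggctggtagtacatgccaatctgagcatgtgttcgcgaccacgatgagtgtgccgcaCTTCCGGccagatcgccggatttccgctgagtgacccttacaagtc
SDHD (chr11:112086623-112086872, plus strand): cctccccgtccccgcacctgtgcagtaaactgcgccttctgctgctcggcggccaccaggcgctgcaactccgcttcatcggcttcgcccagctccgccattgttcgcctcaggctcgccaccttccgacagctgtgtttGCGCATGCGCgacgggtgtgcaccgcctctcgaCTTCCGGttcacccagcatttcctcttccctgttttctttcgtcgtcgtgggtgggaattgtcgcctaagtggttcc
ATP5ME (chr4:674277-674526, minus strand): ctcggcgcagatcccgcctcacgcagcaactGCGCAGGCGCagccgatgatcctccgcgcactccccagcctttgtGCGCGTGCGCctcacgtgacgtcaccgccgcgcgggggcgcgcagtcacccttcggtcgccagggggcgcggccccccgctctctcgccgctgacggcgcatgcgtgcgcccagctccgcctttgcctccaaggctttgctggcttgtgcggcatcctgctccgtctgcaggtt
NDUFAF3 (chr3:49020202-49020451, plus strand): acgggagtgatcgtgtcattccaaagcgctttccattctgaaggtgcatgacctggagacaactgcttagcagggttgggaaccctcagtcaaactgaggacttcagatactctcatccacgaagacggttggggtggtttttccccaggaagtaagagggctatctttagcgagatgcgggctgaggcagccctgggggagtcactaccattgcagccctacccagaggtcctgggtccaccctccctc
COX6B1 and UQCRH each held 1 ETS match, with its first base 12 and 46 bases before the start, SDHD held an NRF1 match 110 bases and an ETS match 77 bases before it, and ATP5ME held 2 NRF1 matches, 219 and 174 bases before it. The printed NDUFAF3 window held neither. Over all members the NRF1 letters were in 17 of 97 windows (17.5%), against 5.07% of the 35116 windows of all genes, and the ETS letters in 23 of 97 (23.7%), against 8.52%. The core letters of hypoxia response elements, ACGTG, were in 18.6% of member windows and 18.5% of all windows. The windows of all genes were not limited to genes tested here, whereas most matched members were tested. Shares among the windows of tested genes are not given, so whether these contrasts are particular to the members was not tested. The 22 tested members with ETS letters had a median log2 difference, averaged over exposures, of 0.32, and the 54 without had 0.15. With NRF1 letters the median was 0.25 over 16 members and without them 0.21 over 60. These are descriptions of letters, chosen after the members' values were known, and say nothing of binding.

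The unexposed sets also differed in members. Of 93 members 31 were higher in replicates 4 to 6 and 4 lower, against 15.7% and 15.9% of all genes tested, and the member median was 0.14 against 0.0001 for all genes. Complex V had 11 of 19 genes higher, complex I 10 of 38, and complexes III and IV 4 each of 9 and 11. NDUFA4L2 had the largest difference, 0.98 (95% interval 0.88 to 1.09, limma adjusted p = 2.4e-10), followed by ATP5ME at 0.58 (0.26 to 0.91), NDUFA2 at 0.42 (0.27 to 0.58) and ATP5F1D, the delta subunit of ATP synthase, at 0.40 (0.24 to 0.56). ATP5F1D had 14.3 to 15.8 FPKM in replicates 4 to 6 and 10.3 to 12.1 FPKM in replicates 1 to 3, while exposed libraries, at 11.9 to 17.0 FPKM, spanned both. Lower members included SDHAF2, a factor that attaches the flavin to SDHA (-0.34, 95% interval -0.55 to -0.12), ATP5S (-0.14) and COX7A2L (-0.10). This lower count dropped to 0 without unexposed replicate 2 and to 1 without unexposed replicate 3, 4 or 5. Both sets carry the same label, so nothing in the labels says how they differ.

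Each exposure was therefore also set against each unexposed set, with the spread pooled over 7 groups. Against unexposed replicates 1 to 3, 63 members were higher with glyphosate, 67 with AMPA, 56 with 2,4-D, 63 with glyphosate plus 2,4-D and 55 with AMPA plus 2,4-D, where 29.8%, 30.3%, 27.9%, 28.2% and 28.6% of all genes were called higher in the same order. Against unexposed replicates 4 to 6 the counts were 49, 53, 45, 55 and 45, where 27.1%, 27.6%, 24.7%, 25% and 26.3% of all genes were called higher. Lower against replicates 1 to 3 were 4, 4, 5, 4 and 5 members, where 27.7%, 27.7%, 26.3%, 26.7% and 26.7% of all genes were lower. Lower against replicates 4 to 6 were 7, 5, 7, 5 and 10 members, where 23.9%, 23.7%, 21.7%, 21.8% and 24% of all genes were lower. The members' medians were 0.25 to 0.34 against replicates 1 to 3 and 0.15 to 0.23 against replicates 4 to 6. In all 5 exposures 49 members were higher against replicates 1 to 3 and 36 against replicates 4 to 6, where 21.3% and 18.4% of all genes were, and 3 were lower against each set, where 19.1% and 15.2% were. Higher in all 5 exposures against both sets were 32 of 93 members, against 13.4% of all genes tested. They were 11 complex I subunits, 8 complex IV, 6 complex III and 6 complex V genes and SDHD. NDUFAF3 was lower in all 5 against both sets, against 10.7% of all genes, and 0 members were called in opposite directions against the 2 sets.

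Several members depended on the set. NDUFA4L2 differed by 1.61 to 2.01 from replicates 1 to 3 and by 0.63 to 1.02 from replicates 4 to 6. ATP5MC2 was higher in all 5 exposures against replicates 1 to 3 (0.39 to 0.57) and in 3 against replicates 4 to 6 (0.05 to 0.23). ATP5F1D was higher in 4 exposures against replicates 1 to 3 (0.17 to 0.46), and against replicates 4 to 6 it was higher in none and lower in 1 (-0.23 to 0.06). ATP5S was lower in all 5 against replicates 1 to 3, whereas SDHC and NDUFAF8 were lower in all 5 against replicates 4 to 6. COX7A2L was higher in all 5 exposures against replicates 4 to 6 (0.13 to 0.24). SDHD and UQCRC1 hardly depended on the set, at 0.24 to 0.38 and 0.23 to 0.47 against replicates 1 to 3 and 0.22 to 0.36 and 0.19 to 0.42 against replicates 4 to 6.

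**Figure D5:**
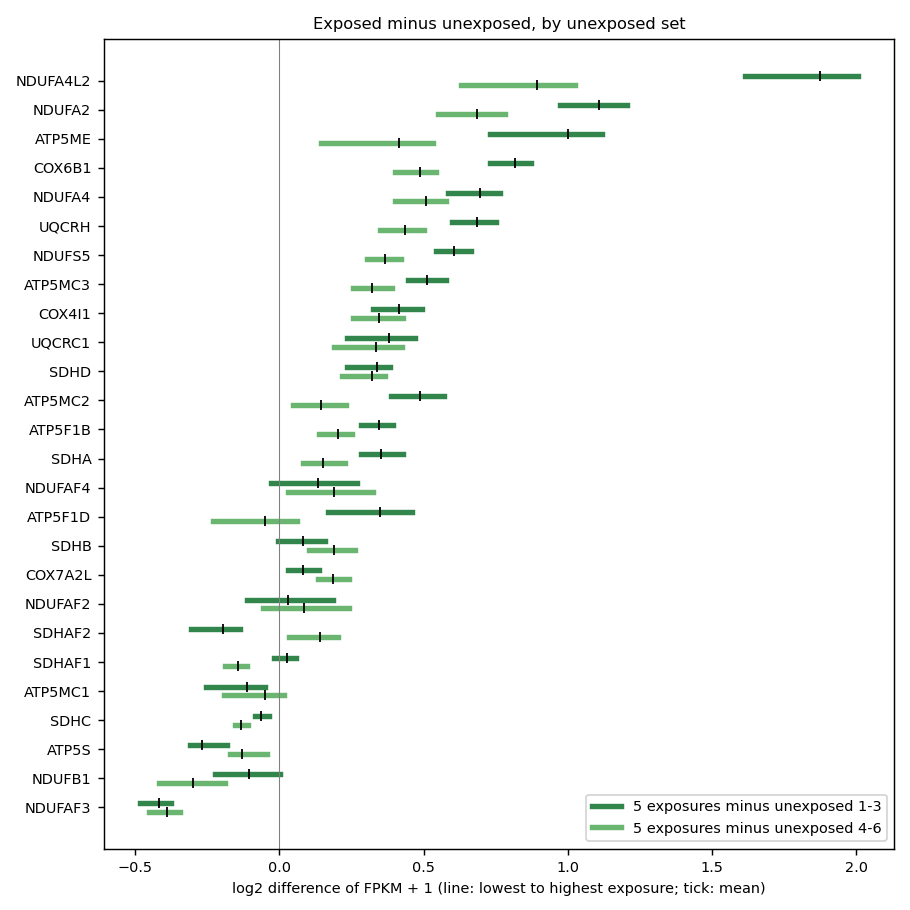
Lowest to highest log2 difference over the 5 exposures (lines) and their mean (ticks) for each named member, against unexposed replicates 1 to 3 (dark) and 4 to 6 (light). NDUFA4L2 shows the widest gap between both sets, 1.61 to 2.01 against 0.63 to 1.02, and SDHD and NDUFAF3 show nearly the same values against both.

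Between exposures 1 member was called. The mixtures hold the same doses as their components, while AMPA was given at 34 µM and glyphosate at 5.6 µM. UQCRC1 (chr3:48599002-48610976, minus strand), a core subunit of complex III on the matrix side, stood at 61.2, 61.5 and 62.6 FPKM with AMPA plus 2,4-D and at 73.1, 71.5 and 74.1 FPKM with AMPA, with no overlap. Its log2 difference was -0.23 (95% interval -0.31 to -0.16, limma adjusted p = 0.014), where 2.01% of all genes tested were lower and 0.701% higher, and the adjusted p ran from 0.0039 to 0.52 over 30 other settings. The call was lost without AMPA plus 2,4-D replicate 1 or replicate 3, without both, and with the compared groups fitted alone. With an unadjusted p under 0.05 there were 19 members in this comparison, and the member median was -0.08. Limma and voom called 0 members for glyphosate plus 2,4-D against glyphosate and against 2,4-D. They also called 0 for AMPA plus 2,4-D against 2,4-D and for AMPA against glyphosate. At an adjusted p under 0.05 limma called 0% of all genes there. In that order, 3, 8, 14 and 2 members had an unadjusted p under 0.05, and the member medians were 0.02, 0.08, -0.002 and 0.03. The share of all genes at that unadjusted threshold is not given here. These counts and the 19 above therefore show nothing particular to the members. The 95% interval of the log2 difference in these comparisons reached 0.18 to either side in the median of all genes tested, and less for some members, such as UQCRC1. A p that misses the threshold does not show that the exposures act alike.

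Genes around the members were read from lists of the same pathway, and their counts are to be set beside the 25 to 28% of all genes tested that were higher and the 22.6 to 25.1% that were lower per exposure. The 13 subunits encoded in mitochondrial DNA gave 0 to 2 higher and 4 to 8 lower per exposure, with MT-CO3, a complex IV subunit, at 3447 to 5029 FPKM in exposed and 5251 to 6117 FPKM in unexposed libraries (-0.65 to -0.26). MT-ND1 and MT-ND5, of complex I, were also lower in all 5 exposures (-0.61 to -0.34 and -0.50 to -0.28). The summed FPKM of these subunits was 14.4 to 20.8 times that of the nuclear subunits in exposed libraries, 20.1 to 23.2 times in unexposed replicates 4 to 6 and 25.6 to 27.6 times in unexposed replicates 1 to 3. A wider list of assembly and regulatory factors of the complexes gave 5 to 7 higher and 12 to 15 lower of 41. This list also holds ATP5IF1, the complex V member called in none. In it CHCHD10 (-0.68 to -0.60) and COA3 (-0.51 to -0.34) were lower in all 5 exposures, and HIGD1A, a hypoxia-induced factor of complexes III and IV, was higher (0.48 to 0.64). Factors of hypoxic respiration, a list that shares HIGD1A with the list above, PDK1 with the pyruvate dehydrogenase list and NDUFA4L2 with the members, gave 5 higher and 2 lower of 8 in every exposure, and 4 higher and 1 lower between unexposed replicates 4 to 6 and 1 to 3. PDK1, a kinase that turns pyruvate dehydrogenase off, stood at 6.36 to 8.42 FPKM in exposed and 2.92 to 4.59 FPKM in unexposed libraries (0.77 to 0.91), and BNIP3L, a mitophagy receptor, differed by 0.79 to 0.99. The 2 lower genes of this list were LONP1 (-0.29 to -0.19) and ISCU (-0.31 to -0.17), and CHCHD4 was called in none. HIF1A, listed with the regulators of respiratory genes, was also called in none.

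The tricarboxylic acid cycle had 4 or 5 of 14 genes higher and 3 to 5 lower, near the shares of all genes tested. DLST was higher (0.24 to 0.31) and OGDH lower (-0.39 to -0.28) in all 5 exposures, although both encode parts of the one 2-oxoglutarate dehydrogenase, and IDH3B was higher (0.30 to 0.45). Pyruvate dehydrogenase genes and kinases gave 3 or 4 higher and 1 or 2 lower of 8, with PDK2 lower (-0.59 to -0.42) and PDHX higher (0.21 to 0.38) in all 5. Regulators of respiratory genes gave 2 or 3 higher and 3 or 4 lower of 11, with the host cell factor HCFC1 (-0.42 to -0.28) and MYC (-0.30 to -0.19) lower and YY1 higher (0.13 to 0.23) in all 5. Factors that transcribe and copy mitochondrial DNA gave 1 to 3 higher and 1 to 5 lower of 14, with the RNA polymerase POLRMT higher (0.15 to 0.27) and the helicase TWNK lower (-0.33 to -0.18) in all 5. MTERF2, a terminator factor, was called in 3 exposures (-0.39 to -0.15). Of CYC1 and CYCS, the cytochromes c1 and c, 1 or 2 were higher per exposure (0.09 to 0.46 and 0.09 to 0.23).

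Members are short genes, with a median exonic length of 2475 bases against 4108 for all genes tested. The 47 members at or under 2475 bases had a median log2 difference, averaged over exposures, of 0.28, and the 46 longer ones had 0.18, while all genes tested in the same length classes had 0.010 and 0.002. Across the 93 members Spearman's rho of the difference with length was -0.23, given as a description, since the points share the same 21 libraries. After removal of a length trend in each library 48 to 61 members were higher and 5 to 8 lower per exposure. The share of all genes called after that removal is not given here.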

How the data were processed

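Expression was measured in 21 RNA-seq libraries of C3A cells, extracted with QIAzol and RNeasy columns and prepared with a SMARTer kit, per the labels. The authors aligned to GRCh38 with HISAT2 2.0.5 and counted with featureCounts 1.5.0-p3, per the submitters' processing notes, and deposited FPKM in 6 tables, one per group. How FPKM were scaled and whether strand was used are not given in the sources used here. FPKM times gene length came out as whole reads within 0.1 in all libraries (100% of values), 15202557 to 24352443 reads per library, which set the precision.

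Genes present in all 6 tables (23375) with at least 1 FPKM in at least 3 libraries were tested, 13405 in all, on log2(FPKM + 1) with limma 3.58.1 in R 4.3.3, using group means over all 21 libraries and moderated statistics with a trend. Adjustment was by Benjamini-Hochberg within each comparison, with calls at an adjusted p under 0.05. A second fit split the unexposed libraries by replicate number. The log2 scale understates changes of low genes. The fit was tested on simulated data. Tables were handled with Python 3.11.15 and pandas 2.3.3. Promoters came from RefSeq.

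Members, gene lists, tests and promoter letters were chosen with earlier results of these data known. Named members were the most abundant and the most changed of each class, the complex II, c-subunit and isoform genes, and those leading the comparisons between unexposed sets and between exposures. Alternatives changed the pseudocount to 0.1, dropped the filter, scaled by median of ratios or to TPM, fitted only the compared groups, added the replicate number as a block, tested recovered reads with voom, removed a length trend, or left out libraries. Replicate numbers did not pair libraries, since 0 of 45 same-numbered pairs deviated together at r over 0.1. Results for 1 item are not reported here. All exonic lengths in the files equalled those of GENCODE 29 for the 100 members.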

Additional observations from a re-analysis of the deposited data

Results flagged for a closer look

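COX7A1, the muscle form of a complex IV subunit, had 0.0544 FPKM, 1 read, in unexposed replicate 4 and 0 in the other 5 unexposed libraries. The spacing of these 6 values marked it as a lone library. With 0 in the other 5 libraries any value above 0 would be marked, and 1 read carries no level.

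UQCRC1 differed between AMPA plus 2,4-D and AMPA, 2 groups set against the same unexposed libraries, by a log2 difference of -0.23 in the test of the difference itself (limma adjusted p = 0.014). Both groups were higher than unexposed cells.

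Rows that carry these family names but are not protein coding, 36 in all with 31 processed pseudogenes, lie outside the comparisons. Their summed level was 34.0 FPKM in the lowest exposed library and 43.3 FPKM in the highest, against 22.9 to 31.2 FPKM in unexposed libraries. SDHAP3 and SDHAP1 are transcribed unprocessed pseudogenes that carry the SDHA name. SDHAP3, the highest of these rows, stood at 9.74 to 13.8 FPKM in exposed and 6.39 to 9.89 FPKM in unexposed libraries. SDHAP1 stood at 3.46 to 5.29 FPKM in exposed and 2.74 to 4.28 FPKM in unexposed libraries. Processed pseudogenes are copies of member transcripts, and the share of reads that belongs to the members was not tested.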

How the results depend on the processing

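No called value changed direction under any setting tried. Shares of all genes called under these settings are not given here, so the member counts below stand without them. For named members in the 5 exposures against all 6 unexposed libraries, 3915 results under other settings kept their side of the threshold, 104 lost the call and 31 gained it. Comparisons between exposures, between the unexposed sets and against either set are not in these counts. Relative to main medians of 0.21 with glyphosate, 0.28 with AMPA, 0.27 with glyphosate plus 2,4-D and 0.23 with AMPA plus 2,4-D, a pseudocount of 0.1 gave 0.243 with glyphosate, 0.293 with glyphosate plus 2,4-D and 0.256 with AMPA plus 2,4-D. Voom on recovered reads gave 0.245, 0.292 and 0.266 in that order. The main median with 2,4-D was 0.19, the lowest of the 5 exposures. The lowest median of any exposure was 0.243 with the pseudocount of 0.1 and 0.242 with voom. The low end of the main range therefore depended on the pseudocount. TPM gave 0.137 with glyphosate, 0.122 with AMPA, 0.159 with glyphosate plus 2,4-D and 0.139 with AMPA plus 2,4-D, where the median of all genes fell to between -0.14 and -0.08, and counts of lower members of 8 to 13, and of 10 to 15 against either unexposed set, against 4 to 10. The replicate block gave medians of 0.277, 0.335, 0.336 and 0.259 in the same order. It compares exposed libraries with unexposed replicates 1 to 3 alone, because no exposed library is numbered 4 to 6, and it gave 54 to 65 members higher, without the 3 calls for SDHC and 1 of 2 for NDUFAF4. Replicate numbers did not pair libraries (r from -0.12 to 0.09 over 45 pairs). Without AMPA plus 2,4-D replicates 1 and 3 together, which leaves 1 library assumed to vary like the others, that exposure had 27 members higher and 3 lower (median 0.17), 19 higher against unexposed replicates 4 to 6, 2 to 4 lower against either set, and 0 lower against AMPA, where the replicate block gave 5.

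Leaving out single libraries gave medians of 0.195 to 0.233 with glyphosate, 0.257 to 0.301 with AMPA, 0.159 to 0.256 with 2,4-D, 0.257 to 0.288 with glyphosate plus 2,4-D and 0.198 to 0.247 with AMPA plus 2,4-D. It gave 0 to 1 member higher and 0 to 1 lower for AMPA plus 2,4-D against 2,4-D, and 0 to 6 lower for AMPA plus 2,4-D against AMPA, with 6 without AMPA plus 2,4-D replicate 2. Against unexposed replicates 4 to 6 the members higher with 2,4-D numbered 31 to 49. Members lower in unexposed replicates 4 to 6 numbered 0 to 4, and 1 to 3 without a filter, with a pseudocount of 0.1, with compared groups alone or after length correction. Against unexposed replicates 4 to 6, lower members numbered 4 for glyphosate without its replicate 2, 3 for glyphosate plus 2,4-D without its replicate 2, and 6 for AMPA plus 2,4-D without its replicate 1 or unexposed replicate 6. Lower counts against all 6 unexposed libraries ran from 3 to 7, with 3 for glyphosate without its replicate 2, 3 for AMPA without its replicate 2 or 3, and 4 for 2,4-D without its replicate 1. The call of ATP5ME with AMPA plus 2,4-D was lost without any 1 of unexposed replicates 1 to 3, glyphosate replicates 1 to 3, AMPA replicates 1 to 3, AMPA plus 2,4-D replicates 1 and 2 or glyphosate plus 2,4-D replicate 1, and on TPM, without a filter and with compared groups alone. The cause of these changes was not tested. Depth limits the isoforms with at most 23 reads.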
